A study of Saccharomyces cerevisiae with 20 samples.

Results

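The cytosolic large ribosomal subunit of budding yeast is encoded by the 81 genes described here. They were picked by name alone from the 6679 genes of the table: every gene called RPL plus a number, with or without a final A or B, and the 5 stalk genes RPP0, RPP1A, RPP1B, RPP2A and RPP2B. The 81 genes specify 46 proteins. For 35 proteins there are A and B copies (70 genes), and 11 proteins have a single gene: RPL3, RPL5, RPL10, RPL25, RPL28, RPL29, RPL30, RPL32, RPL38, RPL39 and RPP0.

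The study compared SK1 yeast, a laboratory strain used for meiosis work, with Ded1 or with its close relative Dbp1. Both are RNA helicases of the DEAD-box family, and Ded1 is known to help ribosomes start translation. Control cells carried DED1 under the DED1 regulatory regions (DED1 cells), and the others had the DBP1 open reading frame in place of the DED1 open reading frame (DBP1 cells). Both strains grew with aeration in YEPD, a rich glucose medium, at 30C or 37C, and were collected at an OD of 0.6 after 1 minute in 100 uM cycloheximide, which holds ribosomes in place on the mRNA. For each strain there were 3 replicates at 30C and 2 at 37C, each with a ribosome footprint library (fragments of 28 to 31 nt, the part of an mRNA that a ribosome covers) and an mRNA library (polyA RNA, fragments of 50 nt), 20 libraries in all. The labels do not say whether replicates were separate cultures, so the p-values below measure only the spread between these samples, which may be technical. Sample titles end in 30Cexp for every 30C library and in 37exp for every 37C library. If these endings name separate experiments, a change with temperature cannot be told apart from a difference between experiments.

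Values are RPKM, reads scaled to the counted coding length of the gene and to the size of the library. They are shares of a library, so a change in the total amount of mRNA or of translation in a cell cannot be told apart from no such change. The steps between low values gave a depth of 3942102 to 9687034 reads per mRNA library and 4816075 to 9393333 per footprint library. Columns were matched to samples by library code. The second header line of 3 of the 20 columns differs from the labels: both columns of DBP1 cells at 30C, replicate 1, carry a strain number that differs in its first digit, and the mRNA column of DBP1 cells at 37C, replicate 2, is headed as footprints. Over 4977 genes that column had a Pearson r on the log2 scale of 0.985 with the mRNA library of replicate 1 and of 0.919 with the footprint library of its own replicate. The exchanged helicase went with the labelled strain in every library: DED1 footprints were 365 to 744 RPKM in DED1 cells and 1.29 to 2.6 in DBP1 cells, and DBP1 footprints were 314 to 515 RPKM in DBP1 cells and 2.99 to 8.07 in DED1 cells.

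The large subunit joins amino acids at its catalytic centre and passes the new chain out through the exit tunnel. Its proteins fold onto ribosomal RNA in the nucleolus and nucleus, and the particle is finished in the cytoplasm, where Rpl10 is among the last to join. Rpp0 anchors the stalk, to which the acidic P1 and P2 proteins bind in pairs and which recruits translation factors, while Rpl5 and Rpl11 bring in the 5S RNA. Growing yeast makes ribosomal proteins in large amounts and in balance, and it is known to lower their mRNAs for a time under heat and other stress. Most of these genes exist as copies left from an old genome duplication, and many carry an intron, which is rare in yeast genes. Here 53 of the 81 genes had an intron and 28 did not.

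The 81 genes took a large share of all reads in every group. In mRNA that share was 12.2% ± 1.02 (SD, n = 3) in DED1 cells at 30C and 10.8% ± 0.367 (n = 3) in DBP1 cells at 30C. At 37C it was 9.11% ± 0.173 (n = 2) in DED1 cells and 9.57% ± 0.545 (n = 2) in DBP1 cells. In footprints the shares were 11.8% ± 0.745 and 10.4% ± 0.185 at 30C, and 8.50% ± 0.331 and 9.10% ± 0.0681 at 37C, for DED1 and DBP1 cells in that order. The shares of both strains at 37C were thus below those of both strains at 30C in each assay. The summed RPKM of the large-subunit genes was 1.13 to 1.17 times that of the 57 small-subunit genes in mRNA and 1.32 to 1.34 times in footprints.

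Levels of single genes spanned a wide range, as the plot of all genes in DED1 cells at 30C shows. The highest mRNA was that of RPL10, with 10396, 10841 and 11877 RPKM in the 3 replicates. RPL28, known as the gene in which cycloheximide resistance mutations of yeast arise, had 9640, 10724 and 11709. RPL38, for a small protein that yeast is known to live without, had 8395, 9628 and 11133. These ranges overlap, so the order of the top genes is not fixed by these replicates. At the low end, RPL4B had 316, 332 and 313 RPKM, RPL7B had 230, 252 and 278, and RPL15B had 58.4, 50.0 and 63.5. RPL15B lay below every other member in each replicate. The median over the 81 genes was 3250 RPKM. Of the 80 steps between neighbours in this order, only 5 separated genes whose replicates did not overlap.

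In footprints the highest member was RPL29, with 9454, 10173 and 11024 RPKM, followed by RPL28 with a mean of 9284 and RPL39, a small protein of the exit tunnel, with 9101. The lowest were RPL7B with a mean of 259, RPL35B with 254 and RPL15B with 65.2, 60.2 and 77.7 RPKM in its replicates. The median over the 79 genes with footprints was 3192 RPKM. RPL41A and RPL41B encode a peptide of 25 residues, the shortest member, and reads were counted over 18 nt of each; they are listed at 0 footprints in all 10 libraries and had 31 to 144 mRNA reads per library, so they have no footprint or efficiency result. All other members had at least 139 mRNA reads and 179 footprint reads in every library.

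**Figure D1:**
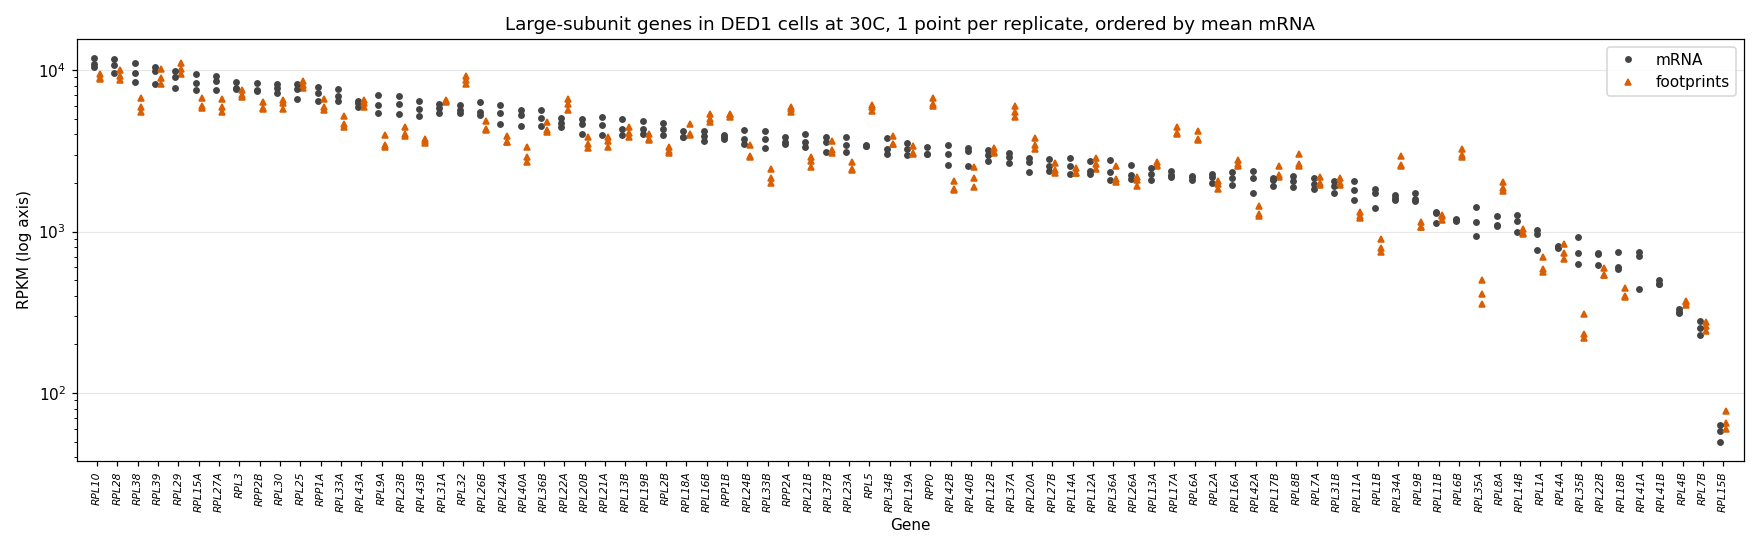
Level of each of the 81 large-subunit genes in DED1 cells at 30C, ordered along the horizontal axis by mean mRNA, with RPKM on a log vertical axis; dots are the mRNA and triangles the footprint values of the 3 replicates. Most genes lie in one band around the mRNA median of 3250 RPKM, and RPL15B, at 50.0 to 63.5 RPKM in mRNA, lies far below the rest.

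The footprint value divided by the mRNA value of the same replicate, called translation efficiency here, is relative to the average of the libraries. Its median over the 79 genes in DED1 cells at 30C was 0.924. It was above 1 in every replicate for 30 genes and below 1 in every replicate for 44. The highest was RPL6B, with 2.44, 2.54 and 2.71, then RPP0 with 1.78, 2.04 and 2.20 and RPL37A with 1.92, 1.88 and 1.93. The lowest were RPL1B, a protein of the mobile L1 stalk near the site where tRNA leaves, with 0.535, 0.453 and 0.489, RPL35A with 0.379, 0.354 and 0.355, and RPL35B with 0.349, 0.318 and 0.334. RPL6B and the RPL35 copies thus differed several fold with no overlap. Over all members, genes with and without an intron had like medians: 3350 and 3056 RPKM in mRNA and 3192 and 3363 in footprints. In efficiency the medians were 0.924 and 0.912. Among genes with a copy they differed more, at 3021 and 1808 RPKM in mRNA, 3034 and 2631 in footprints, and 0.924 and 0.844 in efficiency. The footprint and efficiency medians leave out RPL41A and RPL41B, which have no intron and are in the mRNA medians. How the authors counted reads that fit both copies of a pair is not given in the sources used here, so the level of each copy of a near-identical pair is uncertain. Footprint and mRNA fragments differ in length, so the efficiency of such a copy is uncertain too. This was not tested.

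Adding A and B narrowed the range. The 11 single-copy genes had median values of 7961 RPKM in mRNA and 8132 in footprints. The genes with a copy had 2760 in mRNA (70 genes) and 2853 in footprints (68 genes, without RPL41A and RPL41B). Summed over both copies, the pairs had medians of 6473 in mRNA (35 pairs) and 6523 in footprints (34 pairs), close to the single-copy genes. By protein, summed footprints in DED1 cells at 30C had quartiles of 5167, 6619 and 8132 RPKM, and 35 of 45 proteins exceeded 5000. The highest were the P2 stalk protein, 11691 ± 537 (SD, n = 3), P1, 11289 ± 596, and Rpl29, 10217 ± 786. The lowest were Rpl35 at 677 ± 121, Rpl4 at 1113 ± 88.8, Rpl1 at 1423 ± 152, Rpl7 at 2294 ± 129 and Rpl11 at 2496 ± 100. A ribosome holds a single copy of each of these 5 proteins, and they were nonetheless the lowest of the 45 in footprints per length. The next proteins up were Rpl42 at 3225 ± 225 and Rpl14 at 3342 ± 137. EFT1 and EFT2, copies that encode the same elongation factor, were also low: 52.1 and 90.0 RPKM in mRNA and 102 and 182 in footprints, where the single-copy elongation factor gene YEF3 had 2107 and 4290. Levels of copies are therefore not read here as amounts of protein made. The part of reads shared by near-identical copies in these low values was not tested.

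The stalk departs from one copy per ribosome: a pair each of P1 and P2 proteins binds each Rpp0. Summed footprints of RPP1A, RPP1B, RPP2A and RPP2B were 3.74 ± 0.116 times those of RPP0 (SD over 10 libraries, range 3.54 to 3.89). By group the ratio was 3.67 ± 0.0466 in DED1 cells and 3.67 ± 0.129 in DBP1 cells at 30C (n = 3 each), and 3.82 ± 0.0363 and 3.88 ± 0.00682 at 37C (n = 2 each). P1 alone was 1.86 ± 0.0933 times and P2 alone 1.88 ± 0.0395 times RPP0 over the 10 libraries. In mRNA the same sum was 7.24 ± 0.597 times RPP0, range 6.33 to 8.14, so the ratios of the 2 assays did not overlap.

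Efficiency was unequal within the stalk. In DED1 cells at 30C the efficiency of RPP0 was 1.78 to 2.20, that of RPP2A 1.56, 1.61 and 1.54, and that of RPP1B 1.33, 1.42 and 1.33. RPP1A had 0.872, 0.815 and 0.846 and RPP2B 0.779, 0.774 and 0.759. The genes with more mRNA, RPP1A and RPP2B, thus had the lower efficiency in both pairs, with no overlap between copies. RPP2B had a mean of 7746 RPKM in mRNA against 3647 for RPP2A, yet the footprint means were 5963 and 5728.

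**Figure D2:**
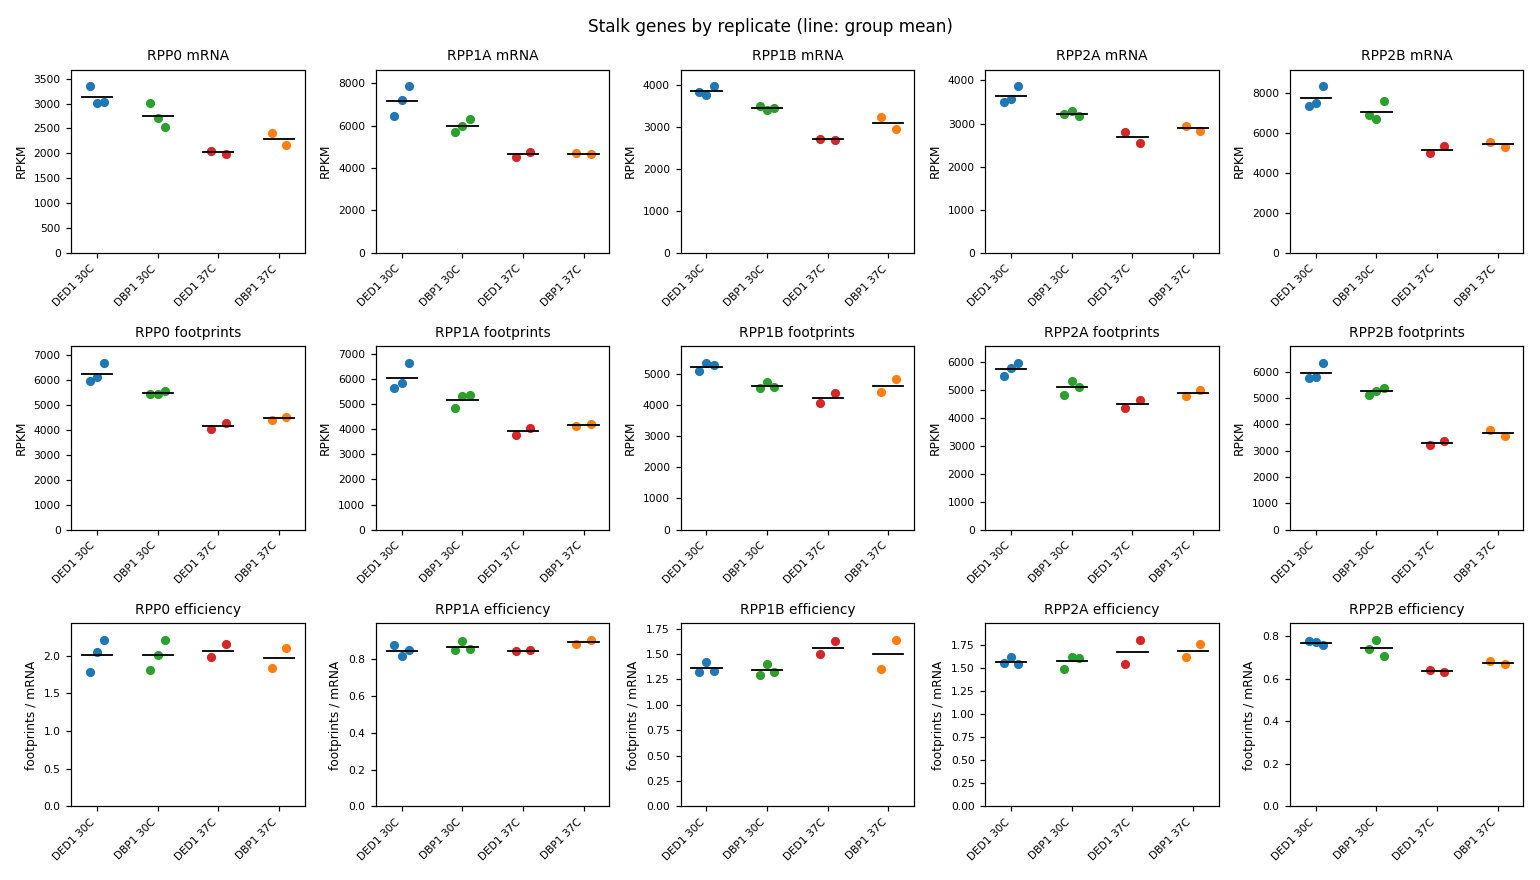
The 5 stalk genes in each replicate of the 4 groups, with mRNA in RPKM, footprints in RPKM and efficiency (footprints over mRNA) on the vertical axes; each point is 1 replicate and each line a group mean. RPP0 has the lowest mRNA mean, 3133 RPKM in DED1 cells at 30C, and the highest footprint mean, 6266, of the 5 genes in that group.

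In most pairs one copy led. In mRNA, A was higher in all 10 libraries for 18 of 35 pairs, B for 15, and the leader varied for RPL43 and RPL41. Averaged over libraries, 14 pairs differed by over 2-fold, and the median difference was 1.92-fold. The most uneven pair was RPL15, with 117 times more RPL15A than RPL15B, followed by RPL7 (8.77-fold), RPL22 (6.47-fold), RPL18 (5.66-fold), RPL27 (3.44-fold) and RPL9 (2.97-fold), all richer in A. In footprints, A led in all libraries for 17 of 34 pairs and B for 12, 10 pairs differed by over 2-fold, and the median was 1.63-fold. The copy with the higher mean was the same in both assays for 30 of 34 pairs. Across pairs the log2 A/B ratios of the 2 assays had a Pearson r of 0.957 (n = 34 pairs, which share libraries; a description). Efficiency differed less, by a median of 1.22-fold, and by over 2-fold for RPP2 (2.26-fold, A higher), RPL22 (2.08-fold, A higher) and RPL37 (2.07-fold, A higher). The RPL22 mean passed 2-fold through its 37C libraries. Its log2 A/B efficiency was 0.50 to 0.84 in the 30C libraries. At 37C it was 0.98 and 1.46 in DED1 cells and 1.48 and 2.64 in DBP1 cells.

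The exchange of DED1 for DBP1 at 30C was compared gene by gene. Changes are log2 differences of RPKM + 1 from a limma model over all genes (5454 in mRNA, 4986 in footprints), and a gene counts as changed at a Benjamini-Hochberg adjusted p under 0.05. In footprints, 22 of 79 members fell in DBP1 cells and 0 rose; of all genes tested 13.5% changed, 10.4% higher and 3.09% lower. The members' median was −0.19, against 0.06 over all genes, and 77 of 79 estimates were negative. The groups did not overlap for 61 members, all lower in DBP1 cells, beside 13.2% of all genes that were lower without overlap. The fall was strongest for RPL9A (−0.34, SE 0.07, adjusted p = 0.0142), RPL34B (−0.31, adjusted p = 0.0166), RPL8A (−0.28, adjusted p = 0.0398) and RPL21A (−0.28, adjusted p = 0.0166). RPL9A footprints were 3361, 3418 and 3941 RPKM in DED1 cells and 2719, 2782 and 2976 in DBP1 cells. The RPL9A replicates of the 2 strains were well apart. These calls depended on single replicates: leaving out DBP1 30C replicate 1, 2 or 3 left 2, 0 or 4 members changed, and leaving out DED1 30C replicate 2 or 3 left 3 or 6.

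In mRNA at 30C, 1 of 81 members was past the test, RPL9A, which fell by 0.35 on the log2 scale (SE 0.09, adjusted p = 0.0438); among all genes 9.3% changed, 8.03% higher and 1.27% lower. The call ended in 9 of the 10 fits that left out a replicate, and leaving out DED1 30C replicate 1 instead gave 18 members changed. RPL9A mRNA was 5388, 6110 and 6968 RPKM in DED1 cells and 4403, 4821 and 5184 in DBP1 cells. Its ranges were apart, but the spread within DED1 cells was wide. Of the 81 estimates 78 were negative, with a median of −0.19 against 0.04 over all genes, and 43 had an unadjusted p under 0.05.

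At 37C no member passed the test between strains, though most estimates were higher in DBP1 cells in both assays. In mRNA 0 of 81 members changed by limma (0.055% of all genes did, 0.0183% higher and 0.0367% lower), 6 had an unadjusted p under 0.05, and 71 estimates were positive with a median of 0.09 against −0.05 over all genes. In footprints 0 of 79 changed (0.963% of all genes did, 0.0401% higher and 0.923% lower), 16 had an unadjusted p under 0.05, and the median was 0.10 against −0.08. Footprint groups did not overlap for 56 members, 53 of them higher and 3 lower in DBP1 cells, beside 13.5% and 33.9% of all genes. This comparison has 2 replicates per group.

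**Figure D3:**
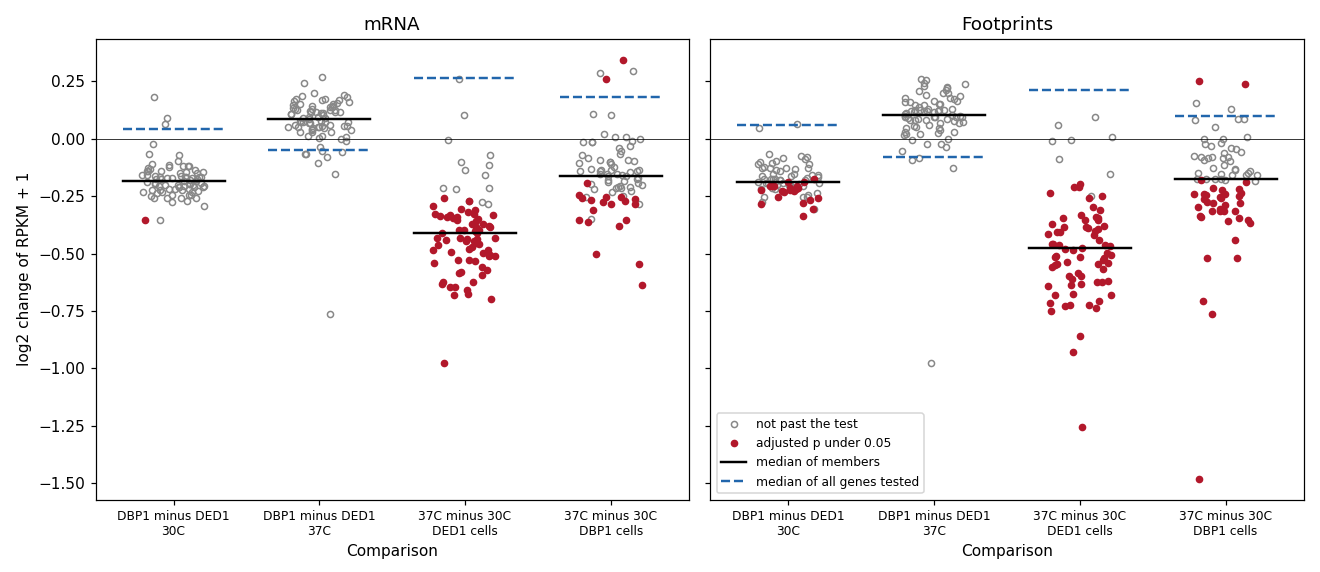
Log2 change of every large-subunit gene in the 4 comparisons, with mRNA and footprints in separate panels; each point is a gene, filled where adjusted p is under 0.05, the solid line is the members' median and the dashed line the median of all genes. In DED1 cells nearly all points lie below 0 at 37C (medians −0.41 in mRNA and −0.48 in footprints), and in DBP1 cells the points lie closer to 0 (−0.16 and −0.18).

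Most large-subunit genes were lower at 37C than at 30C in DED1 cells. In mRNA 67 of 81 members fell and 0 rose, while of all genes 53.3% changed, 43.1% higher and 10.3% lower at 37C. The members' median was −0.41 against 0.26 over all genes, with estimates from −0.98 to 0.26. In footprints 71 of 79 fell and 0 rose (all genes: 52.6% changed, 38.9% higher, 13.6% lower), with a median of −0.48 against 0.21. Replicates at 37C were below all replicates at 30C for 71 of 81 members in mRNA and 73 of 79 in footprints, beside 14.6% and 19.8% of all genes. When libraries were instead scaled by the median of ratios, which puts the median of all genes at 0.00 in mRNA, the members' median was −0.68 and 75 fell, and in footprints it was −0.70 and 75 fell. Leaving out any single replicate kept 43 of the 67 mRNA calls and 59 of the 71 footprint calls in every one of the 10 fits.

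RPL8A, for a protein needed early in assembly, fell furthest in DED1 cells. Its mRNA was 1097, 1075 and 1252 RPKM at 30C and 583 and 574 at 37C (log2 change −0.98, SE 0.10, adjusted p = 8.93e-05). Its footprints were 1784, 1858 and 2026 RPKM at 30C and 765 and 815 at 37C (−1.26, SE 0.09, adjusted p = 1.86e-05), 2.39-fold lower. The temperatures were far apart in both assays. In mRNA the next falls were RPL9A (−0.70, adjusted p = 0.000697), RPL27B (−0.68, adjusted p = 0.000478) and RPL7B (−0.68, adjusted p = 0.00101). In footprints they were RPL1A (−0.93, adjusted p = 8.19e-05), RPP2B (−0.86, adjusted p = 2.14e-05) and RPL22B (−0.75, adjusted p = 0.0414). RPL1A footprints were 560, 582 and 698 RPKM at 30C and 314 and 325 at 37C, without overlap. The RPL22B call ended in 8 of the 10 fits that left out a replicate.

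All 7 genes of the stalk and its base (the 5 stalk genes, RPL12A and RPL12B) fell in both assays in DED1 cells. Of all genes, 10.3% fell in mRNA and 13.6% in footprints. RPP0 fell by 0.63 in mRNA and 0.59 in footprints, and RPP1A by 0.62 in each. RPP1B fell by 0.51 in mRNA and 0.31 in footprints and RPP2A by 0.44 and 0.35, whereas RPP2B fell by 0.59 and 0.86. RPP2B footprints were 5745, 5817 and 6327 RPKM at 30C and 3197 and 3373 at 37C. The 3 genes of the 5S particle fell in both assays, RPL5 by 0.27 in mRNA (adjusted p = 0.0139) and 0.37 in footprints and RPL11A by 0.59 and 0.73. So did the 4 genes of the catalytic centre and its neighbours (RPL2A, RPL2B, RPL3 and RPL10). RPL3, whose protein reaches toward that centre, fell by 0.33 and 0.41, and RPL10 by only 0.26 (adjusted p = 0.0199) and 0.20 (adjusted p = 0.0132).

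Of the 14 exit tunnel genes (RPL4, RPL17, RPL19, RPL26, RPL31 and RPL35 copies, RPL25 and RPL39), 11 fell in mRNA and 12 in footprints in DED1 cells. Of 9 genes for proteins that yeast is known to survive without (RPL22, RPL24 and RPL41 copies, RPL29, RPL38 and RPL39), 6 of 9 fell in mRNA and 7 of 7 with footprints did. All 11 single-copy genes fell in both assays. Beside these counts, 10.3% of all genes fell in mRNA and 13.6% in footprints in DED1 cells. By structure, 44 of 53 genes with an intron and 23 of 28 without one fell in mRNA. In mRNA these 14 members did not pass: RPL4B, RPL6B, RPL9B, RPL14B, RPL15B, RPL18B, RPL20B, RPL22B, RPL33B, RPL35A, RPL35B, RPL41A, RPL41B and RPL43B. Of these 14, 12 are B copies, where B copies are 35 of the 81 members. RPL15B and the RPL41 copies rest on few reads, and a missed call does not show that a gene was unchanged. Summed over copies, 44 of 46 proteins fell in mRNA and 44 of 45 in footprints.

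Fewer members changed between the same temperatures in DBP1 cells. In mRNA 19 of 81 fell and 2 rose (all genes: 43.1% changed, 30% higher, 13.1% lower), with a median of −0.16 against 0.18. In footprints 36 of 79 fell and 2 rose (all genes: 38.9% changed, 21.2% higher, 17.6% lower), with a median of −0.18 against 0.10. Replicates at 37C were below all replicates at 30C for 49 members in mRNA and 56 in footprints, beside 19.2% and 25.7% of all genes. Under median-of-ratios scaling the medians were −0.33 and −0.26, 41 members fell in each assay and 0 rose. Leaving out replicates moved the mRNA count of 21 most, to 13 without DED1 30C replicate 2, 12, 9 and 11 without DBP1 30C replicates 1, 2 and 3, and 6 without DBP1 37C replicate 2. The footprint count of 38 went to 25 without DBP1 30C replicate 1 and to 20 and 18 without DBP1 37C replicates 1 and 2.

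RPL8A was again among the largest falls. Its mRNA was 1034, 939 and 941 RPKM at 30C and 709 and 622 at 37C in DBP1 cells (−0.55, adjusted p = 0.00198), and its footprints were 1538, 1536 and 1578 against 997 and 834 (−0.76, adjusted p = 0.000159). Other mRNA falls were RPL1A (−0.50, adjusted p = 0.00622), RPP2B (−0.38, adjusted p = 0.00485) and RPL41B (−0.64, adjusted p = 0.027). RPL41B rests on few reads and was −0.86 without DBP1 37C replicate 1 and −0.42 without replicate 2. Other footprint falls were RPL1A (−0.71, adjusted p = 0.00039) and RPL7B (−0.52, adjusted p = 0.00385), the latter −0.69 without DBP1 37C replicate 1 and −0.35 without replicate 2. The genes that rose were RPL14B (0.34, adjusted p = 0.0288) and RPL6B (0.26, adjusted p = 0.0148) in mRNA, and RPL43B (0.25, adjusted p = 0.00459) and RPL14B (0.24, adjusted p = 0.0355) in footprints. None of these 4 rises passed under median-of-ratios scaling, where they were 0.18, 0.10, 0.17 and 0.16.

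Of the 5 stalk genes in DBP1 cells, 3 passed the test in both assays. RPP0 fell by 0.27 in mRNA (adjusted p = 0.0389) and 0.30 in footprints, RPP1A by 0.36 and 0.32, and RPP2B by 0.38 and 0.52. RPP1B was at −0.16 (adjusted p = 0.0888) in mRNA and −0.00 (adjusted p = 0.98) in footprints, and RPP2A at −0.16 (adjusted p = 0.108) and −0.06 (adjusted p = 0.495); neither passed, and the stalk genes were not tested against each other. Of the stalk and base list, 3 of 7 fell in mRNA and 5 in footprints. RPL11A fell by 0.35 in mRNA (adjusted p = 0.0322) and 0.44 in footprints, while RPL5 was at −0.09 and −0.13 and RPL10 at −0.18 and −0.15, none past the test. RPL3 fell in mRNA by 0.19 (adjusted p = 0.0343) and was at −0.13 in footprints (adjusted p = 0.0779). Of the exit tunnel genes 2 of 14 fell in mRNA and 3 in footprints. Of the single-copy genes 3 of 11 fell in each assay. Beside these counts, 13.1% of all genes fell in mRNA and 17.6% in footprints in DBP1 cells. The exit tunnel counts lie near those shares.

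The difference between the 2 strains in their temperature change was tested as an interaction. In footprints 25 of 79 members had a positive interaction, a smaller fall or larger rise in DBP1 cells, and 0 a negative one; of all genes 12% passed, 1.91% positive and 10% negative. The members' median was 0.29 against −0.14 over all genes, and 77 of 79 estimates were positive. In mRNA 0 of 81 passed by limma (5.23% of all genes did, 5.06% with a negative value), 35 had an unadjusted p under 0.05, and 78 estimates were positive with a median of 0.27 against −0.10. The largest in footprints were RPL8A (0.49, SE 0.12, adjusted p = 0.034), RPL27B (0.44, adjusted p = 0.0384), RPL9A (0.44, adjusted p = 0.0369) and RPL13B (0.43, adjusted p = 0.0214). Footprints of RPL13B were 3877, 4057 and 4465 RPKM at 30C and 2444 and 2612 at 37C in DED1 cells, and 3606, 3548 and 3685 against 2995 and 2978 in DBP1 cells. The interaction calls were fragile: 1 of the 25 was kept in every one of the 10 fits that left out a replicate, and 1 to 37 members passed. They numbered 3 and 13 without DED1 30C replicates 2 and 3, 4, 3 and 5 without DBP1 30C replicates 1, 2 and 3, 1 and 9 without DED1 37C replicates 1 and 2, and 4 and 3 without DBP1 37C replicates 1 and 2.

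The members that fell in DBP1 cells were nearly all among those that fell in DED1 cells. In mRNA 18 genes fell in both, 26.9% of those in DED1 cells and 94.7% of those in DBP1 cells. In footprints 36 fell in both, 50.7% and 100% of the lists. Since 67 of 81 members fell in DED1 mRNA and 71 of 79 in DED1 footprints, most of any list of members would lie among them. The same overlap over all genes is not given, so no agreement between strains is read from it. The group means in these temperature comparisons share no library, but both comparisons came from the same fit and use the same estimate of spread. The overlap of the calls is therefore not an independent repeat. The interaction and the comparisons of strains do use the same libraries as the temperature comparisons, so the higher level of DED1 cells at 30C and their larger fall are not separate measurements.

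The 57 small-subunit genes are given beside these counts; the subunits were not tested against each other. In DED1 cells 53 fell and 1 rose in mRNA, with a median of −0.41, and in footprints 54 fell and 1 rose, median −0.50. In DBP1 cells 13 fell and 1 rose in mRNA, median −0.17, and 29 fell and 2 rose in footprints, median −0.19. Of all genes, 10.3% fell in mRNA and 13.6% in footprints in DED1 cells, and 13.1% and 17.6% in DBP1 cells.

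Each pair of copies was then followed as the log2 ratio of A to B, in which the scaling of a library cancels except for the 1 RPKM added to each copy. Raising the temperature shifted this ratio in 20 of 35 pairs in mRNA and 22 of 34 in footprints in DED1 cells, 57.1% and 64.7%. Among all A/B pairs of the table, of which 35 of 63 in mRNA and 34 of 60 in footprints are large-subunit pairs, 55.6% and 65% shifted; among the other pairs it was 15 of 28 in mRNA (53.6%) and 17 of 26 in footprints (65.4%). In DBP1 cells 15 pairs shifted in mRNA and 17 in footprints, 42.9% and 50% of those tested, beside 38.1% and 46.7% of all pairs and 32.1% and 42.3% of the other pairs. The shares were not tested against each other. Of the mRNA shifts, 15 went toward B and 5 toward A in DED1 cells, and 10 and 5 in DBP1 cells. Of the footprint shifts, 15 went toward B and 7 toward A in DED1 cells, and 10 and 7 in DBP1 cells. The less abundant copy gained in 13 of 20 mRNA shifts in DED1 cells and 11 of 15 in DBP1 cells. In footprints it gained in 15 of 22 shifts in DED1 cells and 11 of 17 in DBP1 cells. The less abundant copy was named from libraries that also enter the shift, so these counts may lean toward that copy. Such counts are not given for the other pairs, so no preference for the less abundant copy is read from them.

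Most pairs that shifted in one strain also shifted in the other, in separate libraries. The tests of both strains used the same estimate of spread, so their calls are not independent. In mRNA 14 pairs were past the test in both, 70% of those in DED1 cells and 93.3% of those in DBP1 cells, and all 14 moved in the same direction. In footprints it was again 14, 63.6% and 82.4%, all in the same direction. Across all pairs the shifts of the 2 strains had a Pearson r of 0.821 in mRNA (n = 35 pairs) and 0.794 in footprints (n = 34), as a description. In 10 pairs the shift passed in both strains and both assays. RPL1, RPL6, RPL8, RPL14, RPL18, RPL33 and RPL43 moved toward B, and RPL26, RPL40 and RPL42 toward A. These overlaps between strains and assays are not given for the other pairs, so they are not read as particular to the large subunit.

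**Figure D4:**
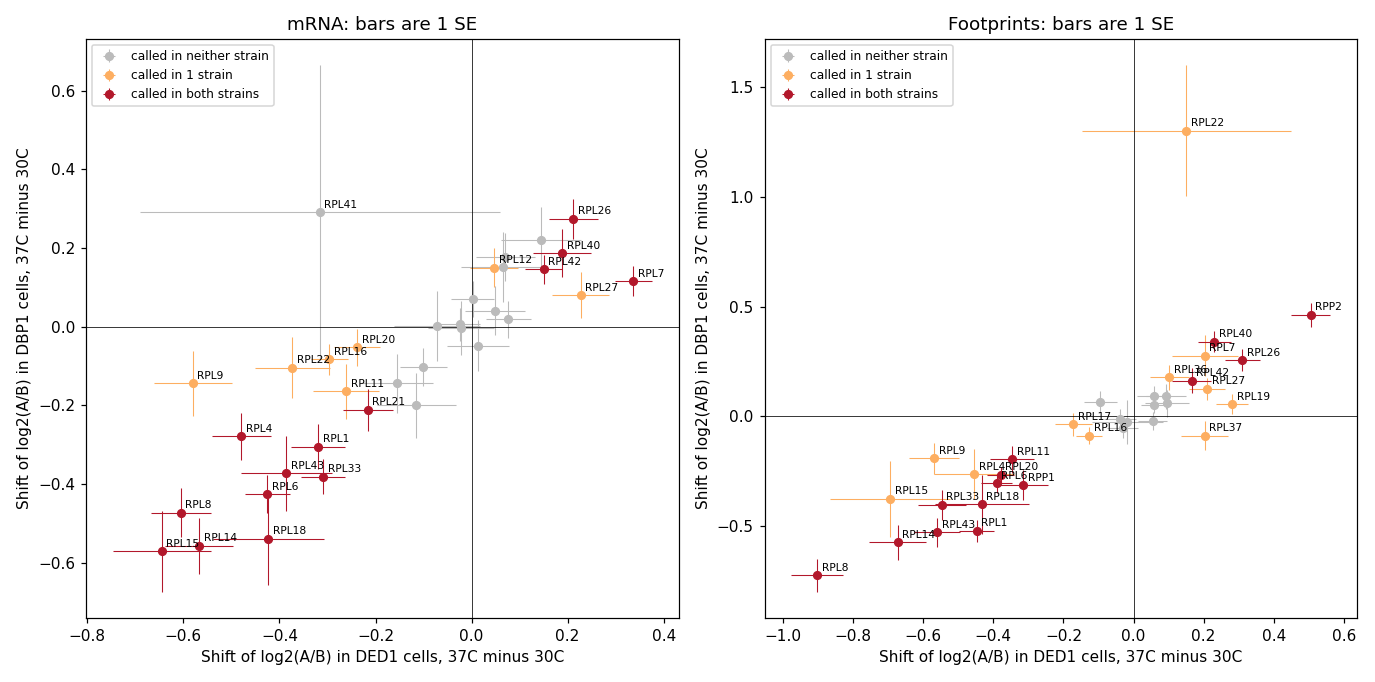
Shift of the log2 A/B ratio between 30C and 37C for each large-subunit pair, with DED1 cells on the horizontal and DBP1 cells on the vertical axis, in mRNA and footprint panels; bars are 1 SE and colours give the number of strains in which the shift passed. Points lie along the diagonal (r of 0.821 in mRNA and 0.794 in footprints), with RPL8, RPL14 and RPL15 at the B end in mRNA and RPL22 high above the rest in footprints.

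RPL8 shifted in both strains and in both assays. In mRNA its ratio moved by −0.61 in DED1 cells (adjusted p = 0.000256) and −0.47 in DBP1 cells (adjusted p = 0.000757), and in footprints by −0.90 (adjusted p = 4.28e-05) and −0.73 (adjusted p = 6.65e-05). RPL8A made up 41.0% of the pair's footprints in DED1 cells and 39.9% in DBP1 cells at 30C, and 27.1% and 28.7% at 37C. While RPL8A fell as given above, RPL8B footprints were 2544, 2608 and 3016 RPKM at 30C and 2114 and 2139 at 37C in DED1 cells, a fall of 0.35. In DBP1 cells RPL8B footprints were 2313, 2270 and 2423 against 2253 and 2288, a change of −0.04 that did not pass. The copies thus parted in both strains, with RPL8B replicates overlapping between temperatures only in DBP1 cells.

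RPL14 moved as far in mRNA, by −0.57 in DED1 cells (adjusted p = 0.000378) and −0.56 in DBP1 cells (adjusted p = 0.000757). RPL14A footprints in DED1 cells were 2292, 2292 and 2463 RPKM at 30C and 1411 and 1523 at 37C. RPL14B footprints were 967, 975 and 1038 at 30C and 1020 and 958 at 37C, overlapping. The share of RPL14A in the pair's footprints went from 70.3% to 59.7% in DED1 cells and from 71.3% to 62.5% in DBP1 cells. The footprint shifts of RPL14 were −0.67 (adjusted p = 0.000103) and −0.57 (adjusted p = 0.000346). In RPL43, the A share of footprints went from 63.1% to 53.7% and from 64.5% to 55.8%. RPL43B footprints were 3271, 3175 and 3352 RPKM at 30C and 3853 and 3915 at 37C in DBP1 cells, without overlap, and the shift of the pair was −0.53 (adjusted p = 0.00019). RPL9 shifted toward B in DED1 cells, by −0.58 in mRNA (adjusted p = 0.000664) and −0.57 in footprints (adjusted p = 0.000113).

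RPL15 had the largest mRNA shifts, −0.64 in DED1 cells (adjusted p = 0.00115) and −0.57 in DBP1 cells (adjusted p = 0.00353), but RPL15A still made up a mean of 98.9% of the pair's mRNA at 37C in each strain. RPL15B mRNA was 58.4, 50.0 and 63.5 RPKM at 30C and 74.0 and 63.5 at 37C in DED1 cells, so its replicates met. Its footprint shift in DED1 cells of −0.69 (adjusted p = 0.00621) was −0.35 without DED1 37C replicate 1 and −1.04 without replicate 2. RPL18 shifted by −0.54 in DBP1 mRNA (adjusted p = 0.00765; 0.0672 without DBP1 37C replicate 1). RPP2 moved the other way in footprints, by 0.51 in DED1 cells (adjusted p = 7.6e-05) and 0.46 in DBP1 cells (adjusted p = 0.000187). RPP2A was 49.0% of P2 footprints in DED1 cells at 30C and 57.7% at 37C.

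**Figure D5:**
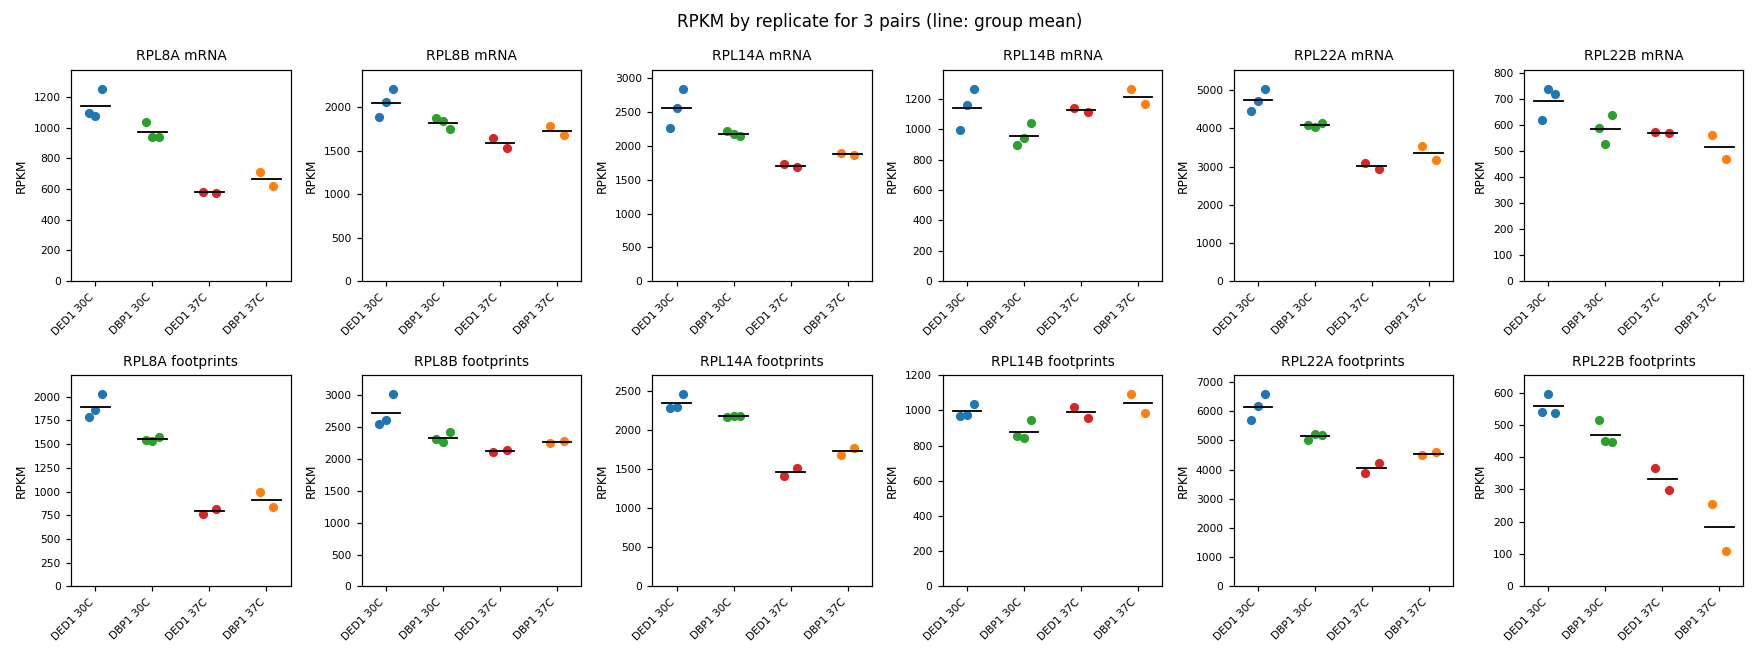
mRNA and footprint RPKM of the copies of RPL8, RPL14 and RPL22 in each replicate of the 4 groups; points are replicates and lines are group means. RPL8A and RPL14A are lower at 37C in both strains, and RPL22B footprints are lowest in DBP1 cells at 37C, at 256 and 109 RPKM.

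RPL22B stood out in DBP1 cells at 37C. Its footprints were 514, 449 and 446 RPKM at 30C and 256 and 109 at 37C, a log2 change of −1.48 (SE 0.27, adjusted p = 0.00239). The 37C replicates differ from each other by more than the 30C replicates do, and the change was −2.09 without DBP1 37C replicate 1 and −0.87 without replicate 2. Its mRNA was 588, 529 and 638 RPKM at 30C and 563 and 472 at 37C, overlapping. The efficiency of RPL22B was 0.874, 0.849 and 0.699 at 30C and 0.456 and 0.231 at 37C in DBP1 cells, and 0.866, 0.804 and 0.745 at 30C and 0.637 and 0.524 at 37C in DED1 cells. Both strains were thus lower at 37C without overlap. The difference between the strains in this change did not pass as an interaction, at −0.83 in efficiency (adjusted p = 1) and −0.73 in footprints (adjusted p = 0.229).

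RPL22A footprints were also lower at 37C, by less. They were 5024, 5229 and 5190 RPKM at 30C and 4504 and 4587 at 37C in DBP1 cells, and the share of RPL22A in the pair's footprints was 91.6% at 30C and 96.1% at 37C. The A/B shift of 1.30 in DBP1 footprints passed (adjusted p = 0.0053) and was 1.93 or 0.68 without DBP1 37C replicate 1 or 2. The strains at 37C differed in RPL22B footprints by −0.98 (adjusted p = 0.148), which did not pass, nor did the A/B ratio at 37C, 1.14 in footprints (adjusted p = 0.0686) and 0.30 in mRNA (adjusted p = 0.0973).

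Between strains, few pairs differed. At 30C, RPL9 shifted toward B in DBP1 cells, by −0.42 in mRNA (SE 0.07, adjusted p = 0.0203) and −0.40 in footprints (adjusted p = 0.00424). It was the single large-subunit pair past the test in each assay, beside 3.17% and 3.33% of all pairs. RPL9A was 76.5% of RPL9 footprints in DED1 cells and 71.2% in DBP1 cells at 30C, and 68.7% and 68.4% at 37C. RPL9B footprints were 1070, 1061 and 1149 RPKM in DED1 cells and 1128, 1097 and 1201 in DBP1 cells at 30C, overlapping, while RPL9A was lower as given above. The mRNA shift lost its call in 4 of 10 fits that left out a replicate, and the footprint shift in 0.

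At 37C, RPL40, made as a fusion to ubiquitin, shifted toward A in DBP1 footprints by 0.24 (adjusted p = 0.0326; 3.33% of all pairs passed). RPL40A was 61.6% of RPL40 footprints in DED1 cells and 65.6% in DBP1 cells. The call ended in 7 of 10 fits that left out a replicate. In mRNA at 37C 0 of 35 pairs passed by limma (1.59% of all pairs did), 4 had an unadjusted p under 0.05, and the largest shifts were those of RPL41 (0.81) and RPL22 (0.30).

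Translation efficiency was tested in a model over all 20 libraries, as the footprint change minus the mRNA change. By limma 0 of 79 members passed in any of the 5 comparisons. Among all genes 0.0402% and 0.0201% passed between strains at 30C and 37C, 0.985% and 1.02% between temperatures in DED1 and DBP1 cells, and 0% for the interaction. In that order, 0, 1, 5, 1 and 0 members had an unadjusted p under 0.05. This model does not pair the mRNA and footprint libraries of a replicate. With these fitted as pairs, 0.241%, 0%, 6.47%, 6.55% and 0% of all genes passed, in the same order. Then 0, 0, 0, 1 and 0 members passed, and 0, 1, 9, 5 and 1 had an unadjusted p under 0.05. Leaving RPL22B aside, members lay between −0.15 and 0.15 on the log2 scale for the strains at 30C, −0.19 and 0.18 at 37C, −0.31 and 0.27 for temperature in DED1 cells and −0.28 and 0.17 in DBP1 cells. These values are differences between a member's footprint change and its mRNA change, and a p that misses the threshold does not show that the changes were equal.

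RPL22B was the exception in size. Its efficiency change in DBP1 cells at 37C was −1.30, with an adjusted p of 0.0637. When the mRNA and footprint libraries of a replicate were treated as a pair, its adjusted p was 0.00926 (SE 0.229, 2.46-fold lower), and it was the single member past that test, beside 6.55% of all genes.

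For copies, the A/B ratio of efficiency shifted with temperature in 3 pairs in DED1 cells, RPP2 by 0.36, RPL33 by −0.24 and RPL19 by 0.21, all with an adjusted p of 0.0457, beside 6.67% of all pairs. The RPP2 shift was 0.48 or 0.24 without DED1 37C replicate 1 or 2. In DBP1 cells 2 pairs passed, RPL22 by 1.41 (adjusted p = 0.0142) and RPL20 by −0.22 (adjusted p = 0.0201), beside 11.7% of all pairs. Between strains 0 of 34 pairs passed at either temperature by limma (0% of all pairs); 0 had an unadjusted p under 0.05 at 30C and 5 at 37C, where RPL22 (0.84) and RPL37 (−0.26) had the largest values.

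Genes that act on the large-subunit genes or on the particle were listed as well. Of 10 known regulators of ribosomal protein genes, 7 rose in mRNA at 37C in DED1 cells. They were the corepressor gene CRF1 (1.41), the repressor genes DOT6 (0.80) and STB3 (0.79), the activator genes SFP1 (0.62), IFH1 (0.51) and FHL1 (0.34), and the kinase gene SCH9 (0.44). In DBP1 cells 6 of 10 rose. Beside these counts, 43.1% and 30% of all genes rose in the same comparisons. In DED1 footprints 2 of 9 regulators rose and 1, RAP1, fell (−0.54), beside 38.9% of all genes higher and 13.6% lower.

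Of 5 chaperone genes dedicated to large-subunit proteins, 1 fell in DED1 mRNA, RRB1 (−0.40), the chaperone of Rpl3, beside 10.3% of all genes. Among the 5, 0 passed by limma in DBP1 cells and 1 had an unadjusted p under 0.05, beside 43.1% of all genes that changed in mRNA. Of 14 genes for maturation of the particle in the cytoplasm, 5 fell and 1 rose in DED1 mRNA, beside 10.3% of all genes lower and 43.1% higher. The gene that rose was RIA1 (0.45), a GTPase that helps release Tif6. In DBP1 cells RIA1 (0.66), SDO1 (0.40), its partner, and AFG2 (0.36), an ATPase of the same path, rose in mRNA, 3 of 14 beside 30% of all genes.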

How the data were processed

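The authors deposited a table of RPKM values per gene for 20 libraries, made, per the submitters' processing notes, with CASAVA, bcl2fastq 2.17 and Bowtie2; which genome build was used, and how reads shared by gene copies were treated, is not given in these sources. Library depth came from the smallest RPKM steps, which are worth 1 read (tolerance 0.02 of a read), with a counted length equal to the spliced coding length less 60 nt. Names matched 5994 of 6679 genes.

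Values were tested as log2(RPKM + 1), keeping genes that averaged 5 RPKM or more, with limma 3.58.1 in R 4.3.3 (1 mean per group, all libraries of an assay, trended eBayes) and Benjamini-Hochberg adjustment over all genes. A fold change on this scale understates the change of low genes. Efficiency used 1 model over both assays (4977 genes). Pair ratios, log2 of (A + 1)/(B + 1), were tested without a trend over all A/B pairs of the table, 63 in mRNA and 60 in footprints and efficiency. The code was tested on simulated data. mRNA and footprint libraries of a replicate deviated together (r 0.24 to 0.655), so they were also fitted as pairs; strains were not paired.

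Genes named are, per comparison, up to 4 past the test per direction with the largest change, the extremes of level, the stalk, the 5S particle, RPL3, RPL10 and members at 0; for pairs, the most uneven and up to 4 largest shifts. Where more pairs or list genes are named, they complete a count. The members and lists were chosen with earlier results of these data known. Alternatives were pseudocounts of 0.1 and 5, no filter, a filter of 20 RPKM, median-of-ratios scaling, summed copies, a replicate block and leaving out each replicate.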

Additional observations from a re-analysis of the deposited data

Results flagged for a closer look

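The change of footprints with temperature differed between the strains, by the interaction test, for 25 of the 79 large-subunit genes, each with a less negative or more positive change in DBP1 cells. Of all genes 12% passed, 1.91% in that direction. When 1 replicate was left out, 1 to 37 members passed, and 1 of the 25 passed in all 10 such fits. The members with the largest interaction were RPL8A at 0.49, RPL27B at 0.44, RPL9A at 0.44 and RPL13B at 0.43 on the log2 scale. DED1 cells at 30C, the group with the highest values of these genes, enter this test together with the other groups. Titles end in 30Cexp for every 30C library and 37exp for every 37C library, so the test cannot be repeated within 1 such label.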

How the results depend on the processing

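Pseudocounts of 0.1 and 5 and a filter of 20 RPKM moved no count by over 1.5 times. Counts below are of large-subunit genes past the test, with the reported count in brackets. The change between strains at 30C in mRNA (1) gave 0 with no filter, 0 with copies summed and 9 with a replicate block, and 0 to 18 when a replicate was left out. In footprints (22) it gave 48 with the block and 0 to 33 with a replicate left out. At 37C mRNA stayed at 0 and footprints (0) went from 0 to 1. Temperature in DED1 cells gave 45 to 71 in mRNA (67) and 59 to 70 in footprints (71) with a replicate left out. In DBP1 cells it gave 6 to 29 in mRNA (21) and 18 to 47 in footprints (38), and 41 in mRNA under median-of-ratios scaling. The interaction gave 0 to 9 in mRNA (0) and 6 with the block; in footprints (25) it gave 1 to 37, 16 with no filter and 49 with the block. Efficiency in DBP1 cells (0) gave 1 with the block and 0 to 1 with a replicate left out.

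For pairs, the strain comparison at 30C gave 0 to 2 in mRNA (1), 0 with the block, and 1 in every footprint fit. At 37C footprints (1) gave 0 to 6, and 3 with the block, and efficiency (0) gave 0 to 1. Temperature in DED1 cells gave 14 to 21 in mRNA (20), 17 to 23 in footprints (22) and 0 to 5 in efficiency (3), where no filter gave 0. In DBP1 cells it gave 8 to 16 in mRNA (15), with 9 without DBP1 30C replicate 2 and 8 without DBP1 37C replicate 1, 13 to 18 in footprints (17), and 1 to 2 in efficiency (2), where the block gave 4. The block tests replicate numbers shared by strains, but same-numbered samples at 30C deviated together for only 1 of 3 numbers (r −0.106, 0.00426 and 0.465 in mRNA, −0.161, 0.079 and 0.36 in footprints). At 37C, with 2 numbers, r was 0.443 and 0.481. Not every pair exceeded 0.1, so the number is not taken as a pairing. Direction was reversed in 3 results, all when copies were summed, which replaces the rise of 1 copy with the pair: RPL14B at −0.020 in mRNA and −0.14 in footprints, and RPL43B at −0.068 in footprints, all in DBP1 cells. The cause of the other differences was not tested. Leaving out a 37C replicate leaves 1 sample, which is then assumed to vary like the other groups. Low depth limits RPL41A, RPL41B and RPL15B.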
